A study of Homo sapiens with 6 samples.

Results

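The comparison described here set parental RMS13 cells kept for 9 h in 10 µM MAL3-101 against the same cells kept for 9 h in DMSO, the vehicle. RMS13 is a human alveolar rhabdomyosarcoma line, a tumour of cells with skeletal muscle features, grown here in RPMI medium with serum and bought from a cell bank. MAL3-101 is a small molecule that blocks the stimulation of HSP70 chaperones by their J-domain partners. Libraries were assigned by their labels, and these are 4 of the 6 libraries of the study, 2 with the drug and 2 with DMSO, called A and B in each group. The other 2 libraries came from RMS13-R, a line with acquired resistance, also with 10 µM MAL3-101 for 9 h. Resistant cells with DMSO were not analysed here. The titles of the DMSO samples also carry the drug's name, but their descriptions name DMSO and were followed. All cells came from 1 line. Nothing in the labels tells if A and B were grown separately, and a p-value here can reflect technical spread alone. Levels are in TPM, the share of all transcripts corrected for gene length. It carries no depth, and counting error is therefore unknown. Of 55401 gene names in the files, 15148 averaged 1 TPM or more in any of the 3 groups and were tested, 347 of them through the resistant group alone. The nearest mean inside that limit was 1.0 TPM and the nearest outside it 0.995 TPM. Results are ordered by 68 gene lists with 1354 distinct genes, of which 1166 were tested.

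HSP70 proteins bind unfolded stretches of other proteins and release them in a cycle driven by ATP. J-domain proteins deliver the clients and speed up hydrolysis, and nucleotide exchange factors reset the cycle. When chaperones are overloaded, heat shock factor 1 (HSF1) switches on cytosolic chaperone genes. Misfolding in the endoplasmic reticulum (ER) acts through 3 sensors, PERK, IRE1 and ATF6, while the integrated stress response slows translation through phosphorylated eIF2 and raises the factor ATF4, which drives amino acid genes. Immediate-early genes such as FOS and EGR1 answer growth factor and stress kinases through serum response factor. Rhabdomyosarcoma cells keep the muscle factor MYOD1 but do not complete differentiation, and the alveolar type is driven by a PAX3-FOXO1 fusion.

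Promoter stretches of 6 genes that rose strongly are shown because each carries the short element that its pathway's factor is known to bind. They are the 250 bases before the RefSeq transcription start on GRCh38.p14, 5′ to 3′ on the gene's strand, with the element in capitals. HSPA6 (chr1:161524290-161524539, plus strand) and DNAJB1 (chr19:14518398-14518647, minus strand) carry a heat shock element, HSPA5 (chr9:125241344-125241593, minus strand) an ER stress element, CHAC1 (chr15:40953221-40953470, plus strand) and ASNS (chr7:97872409-97872658, minus strand) a C/EBP-ATF element, and EGR1 (chr5:138465229-138465478, plus strand) CArG boxes, the sites of serum response factor.
HSPA6: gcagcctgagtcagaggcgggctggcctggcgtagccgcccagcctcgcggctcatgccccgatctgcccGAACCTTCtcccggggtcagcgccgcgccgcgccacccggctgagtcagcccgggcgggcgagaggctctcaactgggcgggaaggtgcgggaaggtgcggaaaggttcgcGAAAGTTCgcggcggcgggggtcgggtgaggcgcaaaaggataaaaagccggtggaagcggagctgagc
DNAJB1: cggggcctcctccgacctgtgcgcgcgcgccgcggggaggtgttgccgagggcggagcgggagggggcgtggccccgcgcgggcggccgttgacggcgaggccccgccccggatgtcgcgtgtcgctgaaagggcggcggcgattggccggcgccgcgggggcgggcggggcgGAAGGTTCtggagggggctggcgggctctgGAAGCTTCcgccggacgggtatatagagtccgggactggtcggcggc
HSPA5: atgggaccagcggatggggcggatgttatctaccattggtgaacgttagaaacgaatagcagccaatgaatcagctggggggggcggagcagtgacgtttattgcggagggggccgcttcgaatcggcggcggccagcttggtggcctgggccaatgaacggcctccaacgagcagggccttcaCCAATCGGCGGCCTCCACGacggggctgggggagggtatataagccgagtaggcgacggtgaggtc
CHAC1: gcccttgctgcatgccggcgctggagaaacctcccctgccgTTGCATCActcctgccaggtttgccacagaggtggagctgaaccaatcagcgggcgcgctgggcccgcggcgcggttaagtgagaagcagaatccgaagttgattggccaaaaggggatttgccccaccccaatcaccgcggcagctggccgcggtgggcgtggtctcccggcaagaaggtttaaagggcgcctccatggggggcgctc
ASNS: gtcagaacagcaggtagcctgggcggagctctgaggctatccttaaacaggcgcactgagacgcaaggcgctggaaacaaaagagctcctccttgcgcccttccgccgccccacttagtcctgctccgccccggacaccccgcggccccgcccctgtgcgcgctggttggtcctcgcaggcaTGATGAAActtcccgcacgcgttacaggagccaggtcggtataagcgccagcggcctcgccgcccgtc
EGR1: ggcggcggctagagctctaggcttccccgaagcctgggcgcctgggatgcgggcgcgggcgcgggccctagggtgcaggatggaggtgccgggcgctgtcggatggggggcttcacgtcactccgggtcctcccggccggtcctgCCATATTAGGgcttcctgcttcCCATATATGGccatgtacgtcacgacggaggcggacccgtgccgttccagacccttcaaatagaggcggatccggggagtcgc

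In HSPA6 the capitals lie 180 to 173 and 69 to 62 bases before the start, and in DNAJB1 77 to 70 and 47 to 40 bases before it. The HSPA5 element lies 66 to 48 bases, the CHAC1 element 209 to 202 bases and the ASNS element 68 to 61 bases before the start, and the EGR1 boxes 105 to 96 and 83 to 74 bases. The CHAC1 match reads on the opposite strand. RefSeq windows of 250 bases before to 50 bases after a start were found for 10419 of the tested genes (68.8%), and each motif was searched on both strands in every window of a gene. The heat shock element, taken as GAANNTTC, stood in 6.69% of all tested genes with a window. It stood in 9.59% of the 271 that rose 2-fold or more and in 12.8% of the 47 that fell 2-fold or more. In the HSP70, J-domain, exchange factor, HSP90, small heat shock protein and TRiC groups together, 17 of 78 genes (21.8%) held it. Among the 17 were genes that rose, such as HSPA6, HSPA1A, HSPA1B, DNAJB1 and CHORDC1. HSPA8, which fell, and DNAJA1 and HSP90AB1, which did not pass, were among them too. BAG3, which rose, did not hold it. Those groups also include ER and mitochondrial chaperones, such as HSPA5 and HSPA9. The C/EBP-ATF element, taken as TGATGNAA, stood in 2.74% of all, 10.3% of the 2-fold rises, 4.26% of the 2-fold falls and 10 of 34 amino acid genes (29.4%), among them ASNS, CHAC1, SLC3A2, SLC7A1, SLC1A4, GOT1 and MTHFD1L. The ER stress element, CCAAT and CCACG with 9 bases between them, stood in 16 genes (0.154%), 7 of them in the ER groups: CALR, CANX, CRELD2, ERO1LB, HSP90B1, HSPA5 and PDIA6. CArG boxes stood in 1.59% of all genes and 3.69% of the 2-fold rises, and 3 of 20 immediate-early genes, EGR1, EGR2 and SRF, had one. AP-1 sites (TGANTCA) stood in 6.74% of all genes and 11.1% of the 2-fold rises. A match describes the letters of the window only, and a CRE (TGACGTCA) or AP-1 match can overlap the other elements.

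By limma's moderated test, 6181 genes differed between MAL3-101 and DMSO at a Benjamini-Hochberg adjusted p under 0.05, which is 40.8% of those tested. Of all tested genes 22.6% rose and 18.2% fell, and 2.81% rose and 0.68% fell by 2-fold or more, so these shares are the background for every group below. Small changes made up much of the total: 3237 of the called genes (52.37%) had a log2 fold change under 0.5 in size, and the median of all tested genes was 0.02. Fold changes are differences of log2(TPM + 1), written as log2 fold change or, in short, as a change, with their standard error (SE). The amounts after "rose by" and "fell by" and the medians of groups are on that log2 scale too. DMSO libraries differed 2-fold from each other in 171 genes and MAL3-101 libraries in 67. Counts of called genes also changed when 1 library was left out, with the range given in a later section. Such a fit leaves a single library in that group, which then adds nothing to the estimated spread. Counts and adjusted p-values given for a left-out library carry that limit. In the groups below, a count that moved by over 1.5 times and by at least 2 genes when 1 library was left out, or when libraries were rescaled by median ratios or upper quartiles, is followed by that count in brackets, with the library named as DMSO A, DMSO B, MAL3-101 A or MAL3-101 B. After rescaling, 3199 genes rose and 3132 fell by median ratios and 2996 rose and 3412 fell by upper quartiles, so falls outnumbered rises with upper quartiles alone. Both groups are small: 69.8% of all tested genes showed no overlap between the DMSO and the MAL3-101 libraries, which is the background wherever groups are said not to overlap. Of the genes called 2-fold or more higher, 66 had a DMSO mean under 1 TPM and so entered the test only through a group with drug. Genes that entered that way also count among the rises of groups below, such as COL6A2 among the collagens. Those counts are thus partly set by the filter.

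**Figure D1:**
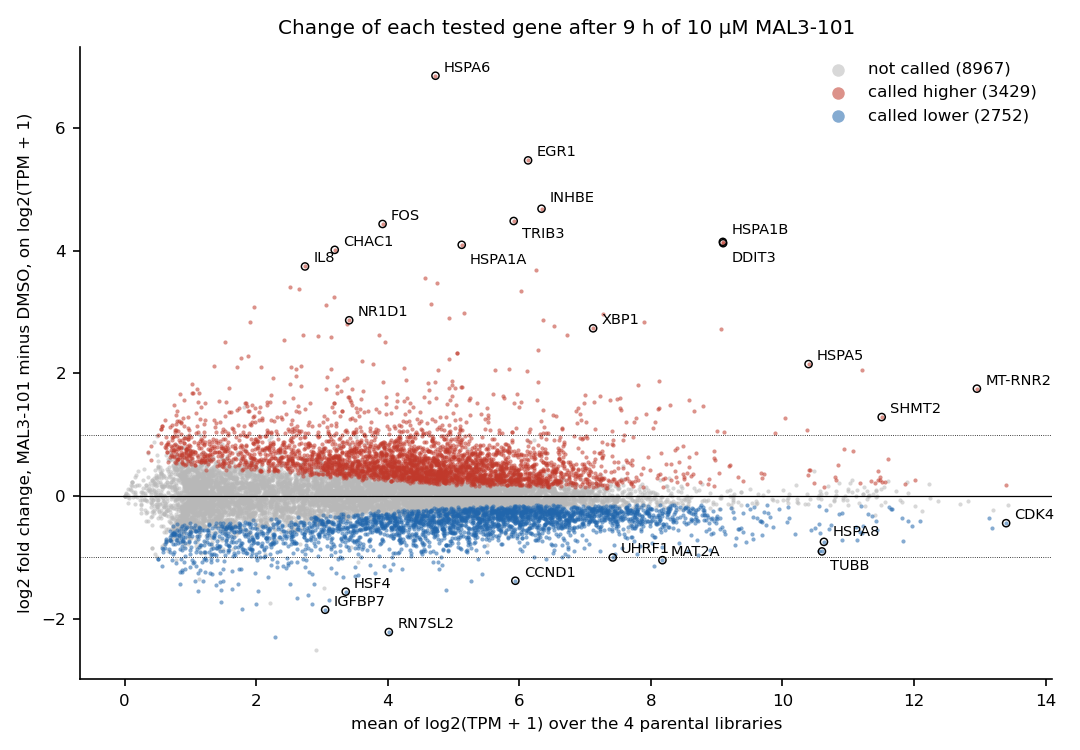
Log2 fold change of each of the 15148 tested genes (vertical axis, difference of log2(TPM + 1)) against its mean level over the 4 parental libraries (horizontal axis, log2(TPM + 1)); red points rose, blue points fell and grey points did not pass limma's test. The largest changes are rises, led by HSPA6 at 6.85 and EGR1 at 5.47, while falls beyond 2-fold are fewer.

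The cells' labelled identity was checked on markers. MYOD1, the muscle determination factor, stood at 816 and 802 TPM with DMSO and 714 and 719 with MAL3-101, and MYOG, a factor of later muscle differentiation, at 522 and 319.6 TPM with DMSO and 474 and 467 with MAL3-101. Their tests are given with the muscle genes. Of 25 rhabdomyosarcoma and myoblast markers, 21 passed the filter. MYF5 and MYF6 were listed at 0 in all 4 libraries. The summed level of that list was 6095 and 7025 TPM with DMSO and 5072 and 5040 TPM with MAL3-101. The summed levels of the lists for other cell types ranged from 65.0 to 83.8 TPM for 8 fibroblast genes, from 8.50 to 18.4 TPM for 8 epithelial genes, and from 1.77 to 3.18 TPM for the endothelial and immune genes. The 2 mitochondrial ribosomal RNAs took 0.533% and 0.565% of all TPM with DMSO and 1.92% and 1.97% with MAL3-101. The part of the marker lists in the results was not tested. With mitochondrial genes left out, 6247 genes were called, and 426 of 427 named genes kept their direction and their side of the test.

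Cytosolic HSP70 transcripts moved apart: inducible members rose steeply while the most abundant constitutive member fell. In the group of HSP70 and HSP110 genes, which also holds members of the ER and mitochondria, 9 of 14 tested members rose, 1 fell and 4 did not pass. The median log2 fold change was 1.05. HSPA6, a strictly inducible HSP70, stood at 1.8 and 1.16 TPM with DMSO and 326 and 247 with MAL3-101. Its log2 fold change was 6.85 (SE 0.17, adjusted p = 9.56e-07) by limma with Benjamini-Hochberg adjustment, as for every adjusted p below. HSPA1B and HSPA1A, near-identical copies of the main inducible HSP70 whose reads a counting program may divide between them, together had 138 and 135 TPM with DMSO and 2691 and 2211 TPM with MAL3-101. The 2 groups did not overlap for any of these genes, and library A with MAL3-101 was the higher one each time. HSPA8, the constitutive cytosolic HSP70, stood at 1868 and 2251 TPM with DMSO and 1259 and 1188 with MAL3-101, a change of -0.75 (SE 0.09, adjusted p = 0.000858), with both drug libraries below both DMSO libraries. Summed over the whole HSP70 and HSP110 group, ER and mitochondrial members included, levels went from 3565 and 3954 TPM to 9038 and 8149 TPM.

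HSPH1, a cytosolic HSP110 that acts as exchange factor for HSP70, was at 254 and 275 TPM with DMSO and 778 and 692 with MAL3-101, a change of 1.47 (SE 0.07, adjusted p = 2.1e-05). HSPA9, the mitochondrial HSP70, rose less, by 0.63 (SE 0.05). HSPA5, the HSP70 of the ER also called BiP, stood at 653 and 624 TPM with DMSO and 2908 and 2776 with MAL3-101, and HYOU1, the HSP110 of that compartment, rose by 1.57 (SE 0.05). With MAL3-101 the ER form HSPA5 was thus the most abundant HSP70 transcript in TPM in both libraries, ahead of HSPA1B and HSPA8, whereas HSPA8 held that place with DMSO.

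Among the J-domain proteins, 20 of 34 tested members rose, 2 fell and 12 did not pass (11 rises without MAL3-101 A, 11 rises without MAL3-101 B). The median log2 fold change was 0.27. DNAJB1, the main inducible partner of cytosolic HSP70, stood at 207 and 206 TPM with DMSO and 1475 and 1284 with MAL3-101, a change of 2.73 (SE 0.07, adjusted p = 9.56e-07). The drug libraries lay far above the DMSO libraries, which were nearly equal. Its promoter above holds a pair of heat shock elements. The next largest rises were those of ER members: DNAJB9 by 2.34 (SE 0.07), DNAJC3, which also inhibits eIF2 kinases, by 1.77 (SE 0.07), and DNAJB11 by 0.96 (SE 0.05). DNAJA1, an abundant constitutive partner of cytosolic HSP70, did not pass, with a log2 fold change of -0.07, and DNAJC9, a histone co-chaperone, fell by 0.53 on the log2 scale.

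Co-chaperones around HSP70 and HSP90 were split. Of nucleotide exchange factors and BAG proteins, 3 of 13 tested members rose, 3 fell and 7 did not pass (0 falls without MAL3-101 A, 0 falls without MAL3-101 B). BAG3, an exchange factor that links HSP70 to autophagy, stood at 31.3 and 37.3 TPM with DMSO and 258 and 223 with MAL3-101, a change of 2.78 (SE 0.10, adjusted p = 5.78e-06), while GRPEL2, an exchange factor of mitochondria, rose by 0.89 (SE 0.09). In the group of HSP90 genes and heat shock factors, 5 of 16 tested members rose, 5 fell and 6 did not pass (8 falls without DMSO A, 2 falls without MAL3-101 A, 2 falls without MAL3-101 B): HSP90B1, the HSP90 of the ER, rose by 1.27 (SE 0.06), CHORDC1, an HSP90 partner, by 1.56 (SE 0.10), and inducible HSP90AA1 by 0.51 (SE 0.06). The constitutive HSP90AB1 stood at 1476 and 1643 TPM with DMSO and 1543 and 1476 with MAL3-101 and did not pass. Its log2 fold change of -0.05 became -0.12 without DMSO A and 0.03 without DMSO B. HSF1 was at 59.7 and 66.5 TPM with DMSO and 67.4 and 69.7 with MAL3-101, a log2 fold change of 0.12 with an adjusted p = 0.189 by limma (log2 fold change 0.20 without DMSO B). HSF4, a heat shock factor best known from the lens, was at 17.2 and 16.1 TPM with DMSO and 4.85 and 5.13 with MAL3-101 and fell by 1.56 on the log2 scale, while HSF2 rose by 0.55 (SE 0.07). HSPB1, a small heat shock protein that holds unfolded proteins, rose by 0.70 (SE 0.08). The TRiC chaperonin, which folds actin and tubulin, went slightly down: 1 of 8 tested members rose, 4 fell and 3 did not pass (2 falls without MAL3-101 A, 1 fall without MAL3-101 B), with CCT6A at -0.29. CCT2, the 1 rise, lost its call under both rescalings and without DMSO A or either MAL3-101 library (log2 fold change 0.15, adjusted p = 0.0465 by limma with all libraries).

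**Figure D2:**
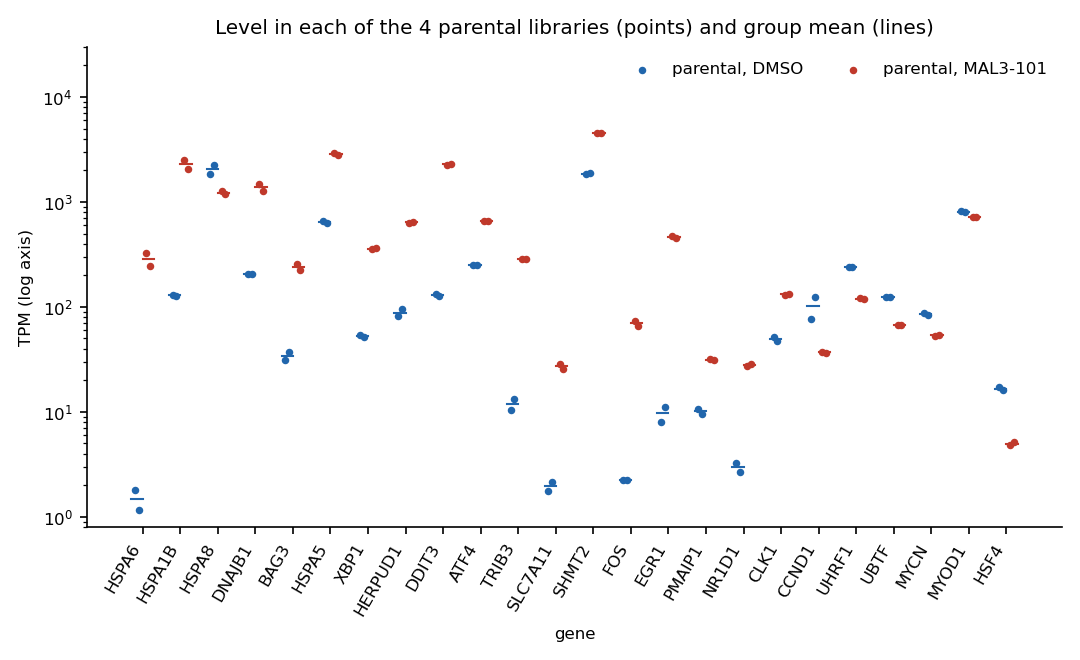
TPM of 24 genes on a log axis in each of the 4 parental libraries; points are libraries, short lines group means, blue DMSO and red MAL3-101. HSPA8, CCND1, UHRF1, UBTF, MYCN, MYOD1 and HSF4 are the genes whose drug libraries lie below both DMSO libraries; in the others plotted they lie above.

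The stress-responsive bZIP factors, a class of DNA-binding proteins that work in pairs, moved in 1 direction: 14 of 17 tested members rose, 0 fell and 3 did not pass. The median was 0.93. ATF4, whose protein is made when eIF2 is phosphorylated, stood at 249.5 and 248.6 TPM with DMSO and 656 and 653 with MAL3-101, a change of 1.39 (SE 0.04, adjusted p = 2.83e-06). Its libraries agreed closely within each group. The partners and targets rose further: CEBPB was at 4.31 and 8.03 TPM with DMSO and 79.9 and 80.4 with MAL3-101, ATF3 at 53.2 and 55.7 TPM with DMSO and 451 and 414 with MAL3-101 and CEBPG at 25.8 and 28.6 TPM with DMSO and 121 and 114 with MAL3-101. In all 3 genes the groups were well apart, although for CEBPB the DMSO libraries differed widely from each other. CREB5 rose by 2.05 (SE 0.09), ATF5 by 1.86 (SE 0.15) and JDP2, a partner of JUN, by 1.67 (SE 0.15).

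Regulators of eIF2 phosphorylation changed in both directions. Of these genes, 6 of 13 tested members rose, 3 fell and 4 did not pass (1 fall without MAL3-101 A, 1 fall without MAL3-101 B). PPP1R15A, also called GADD34, which steers the phosphatase back to eIF2, stood at 36.1 and 47.3 TPM with DMSO and 272 and 252 with MAL3-101, a change of 2.63 (SE 0.11, adjusted p = 1.38e-05). EIF2AK3, the ER sensor kinase PERK, was at 15 and 16.7 TPM with DMSO and 63.8 and 52.7 with MAL3-101, up by 1.81 (SE 0.10), while EIF2AK4 (GCN2), the kinase that senses uncharged tRNA, was at 27.9 and 24.8 TPM with DMSO and 21.8 and 22.2 with MAL3-101, a change of -0.25 (SE 0.08, adjusted p = 0.0361) by limma that lost its call without DMSO A (adjusted p = 0.0535), MAL3-101 A (0.164) or MAL3-101 B (0.126). The catalytic phosphatase subunit PPP1CC fell by 0.43 on the log2 scale.

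Transcripts of many amino acid transporters rose. Of the plasma membrane transporters, 12 of 17 tested members rose, 0 fell and 5 did not pass. The median was 0.67. SLC7A11, which imports cystine in exchange for glutamate, stood at 1.77 and 2.16 TPM with DMSO and 28.7 and 25.6 with MAL3-101, a change of 3.25 (SE 0.11, adjusted p = 5.47e-06), and its shared heavy chain SLC3A2 at 145 and 145 TPM with DMSO and 535 and 537 with MAL3-101, a change of 1.88 (SE 0.04, adjusted p = 8.09e-07). Both genes were tightly reproduced and free of overlap. The glycine carrier SLC6A9 rose by 3.38 (SE 0.13) and the carrier of serine and alanine SLC1A4 by 2.62 (SE 0.14).

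The enzymes of serine synthesis and most of the mitochondrial folate enzymes rose, while the cytosolic enzyme MTHFD1 fell. In that list, 8 of 14 tested members rose, 3 fell and 3 did not pass. The median was 0.99. PSPH, the last step of serine synthesis, was at 27.6 and 19.8 TPM with DMSO and 99.97 and 100.4 with MAL3-101. SHMT2, the mitochondrial enzyme that splits serine into glycine and a one-carbon unit, was at 1846 and 1878 TPM with DMSO and 4547 and 4558 with MAL3-101, a change of 1.29 (SE 0.05, adjusted p = 5.75e-06). Its groups lay far apart, and the libraries within each group were nearly equal. MTHFD2, the next mitochondrial step, rose by 1.42 (SE 0.04) and PSAT1 by 1.53 (SE 0.10). In the cytosol MTHFD1 fell by 0.47 on the log2 scale, and TYMS, thymidylate synthase, fell by 0.42.

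Asparagine, sulfur and glutathione genes were mixed: 7 of 15 tested members rose, 1 fell and 7 did not pass (3 falls without DMSO A). ASNS, asparagine synthetase, stood at 24.98 and 15.01 TPM with DMSO and 205 and 208 with MAL3-101, and CHAC1, which degrades glutathione, at 1.71 and 0.91 TPM with DMSO and 34.9 and 36.7 with MAL3-101, a change of 4.02 (SE 0.16, adjusted p = 1.01e-05). CTH, which makes cysteine, rose by 2.81 (SE 0.15) and GPT2 by 1.77 (SE 0.10). GCLC, which starts glutathione synthesis, stood at 4.65 and 4.27 TPM with DMSO and 7 and 5.2 with MAL3-101 and did not pass. MAT2A, which makes the methyl donor S-adenosylmethionine, went down: it was at 397 and 432 TPM with DMSO and 198 and 202 with MAL3-101, a change of -1.04 (SE 0.05, adjusted p = 2.68e-05), with no overlap.

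Genes that restrain AKT and mTORC1, the growth kinases, included some of the steepest rises. Among 14 tribbles, sestrins and other brakes, 5 of 14 tested members rose, 2 fell and 7 did not pass (0 falls without MAL3-101 A). TRIB3, a pseudokinase that binds AKT, stood at 10.4 and 13.2 TPM with DMSO and 284 and 284 with MAL3-101, a change of 4.49 (SE 0.10, adjusted p = 8.09e-07). SESN2, a leucine sensor, rose by 3.48 (SE 0.08), DDIT4, an mTORC1 inhibitor, by 2.88 (SE 0.19), and EIF4EBP1, which holds back cap-dependent translation, by 1.22 (SE 0.08). Of secreted stress factors, 5 of 6 tested members rose, 0 fell and 1 did not pass. INHBE, an activin subunit, stood at 17.2 and 12.96 TPM with DMSO and 410.1 and 408 with MAL3-101, GDF15, a circulating stress cytokine, at 19.02 and 21.6 TPM with DMSO and 276 and 272 with MAL3-101, and VEGFA, the growth factor of blood vessels, at 13.8 and 12.4 TPM with DMSO and 64.7 and 64.9 with MAL3-101. All were well above their DMSO levels in both drug libraries.

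All 3 ER sensors had raised transcripts. In the sensor group, 7 of 11 tested members rose, 0 fell and 4 did not pass. XBP1, the factor that IRE1 splices, stood at 54.5 and 51.5 TPM with DMSO and 353 and 364 with MAL3-101, a change of 2.74 (SE 0.05, adjusted p = 7.75e-07). ERN1, which encodes IRE1, rose by 1.29 (SE 0.13), and ATF6 by 0.66 (SE 0.07). Of ER folding enzymes, 18 of 22 tested members rose, 1 fell and 3 did not pass. The median was 0.74. SDF2L1, a partner of HSPA5, stood at 34.3 and 32.4 TPM with DMSO and 176 and 179 with MAL3-101, a change of 2.38 (SE 0.05, adjusted p = 8.09e-07), and MANF, a secreted ER protein, at 197 and 178 TPM with DMSO and 526 and 522 with MAL3-101. CALR and CANX, the lectin chaperones of glycoproteins, rose by 0.74 (SE 0.04) and 0.59 (SE 0.05). The 1 fall was ERO1L, an oxidase that feeds disulfide bonds to PDI, at -0.51 (adjusted p = 0.0507 without MAL3-101 B), while its relative ERO1LB rose by 1.09 (SE 0.20).

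Transcripts for degradation and export from the ER changed member by member. In the ERAD group (ER-associated degradation), 14 of 26 tested members rose, 4 fell and 8 did not pass (9 rises without MAL3-101 A). The median was 0.27. HERPUD1, a scaffold of the ubiquitin ligase, stood at 81.7 and 94.7 TPM with DMSO and 634 and 644 with MAL3-101, a change of 2.85 (SE 0.08, adjusted p = 1.62e-06), and SEL1L, its adaptor, rose by 1.26 (SE 0.07). The segregase partners NPLOC4 and UFD1L fell by 0.26 and 0.31 on the log2 scale. Of the protein-conducting channel and signal recognition particle, 11 of 25 tested members rose, 2 fell and 12 did not pass (4 falls with upper-quartile scaling), with smaller changes, the largest that of SEC63 at 0.74. Of genes of the COPII coat, which carries cargo from the ER to the Golgi, 8 of 14 tested members rose, 1 fell and 5 did not pass. Of the cargo adaptors, SEC24D rose by 1.25 (SE 0.06) and SEC24A by 1.15 (SE 0.11). SEC31A rose by 0.95 (SE 0.08), whereas SEC31B, at 7.74 and 9.55 TPM with DMSO, fell by 0.87 on the log2 scale.

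Of the ubiquitin and p97 group, 8 of 19 tested members rose, 0 fell and 11 did not pass (3 falls with upper-quartile scaling, 2 falls without DMSO B). UBB, a polyubiquitin gene, stood at 2617 and 2426 TPM with DMSO and 4069 and 3647 with MAL3-101, a change of 0.61 (SE 0.07). ZFAND2A, an arsenite-inducible proteasome partner, was at 8.7 and 11.9 TPM with DMSO and 86.7 and 78.8 with MAL3-101, with no overlap between groups. Of autophagy genes, 9 of 24 tested members rose, 3 fell and 12 did not pass (5 rises without MAL3-101 A, 5 falls with upper-quartile scaling, 5 falls without DMSO A, 0 falls without MAL3-101 A, 0 falls without MAL3-101 B). MAP1LC3B, the membrane tag of autophagosomes, rose by 0.92 (SE 0.06). SQSTM1, the receptor p62, did not pass at 130.0 and 155 TPM with DMSO and 153 and 149 with MAL3-101, with groups that overlapped. Its log2 fold change of 0.09 became -0.03 without DMSO A and 0.22 without DMSO B.

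The oxidative stress factor NRF2 and its targets did not move together. NFE2L2, which encodes NRF2, stood at 37.4 and 37.4 TPM with DMSO and 114 and 106 with MAL3-101, a change of 1.53 (SE 0.06, adjusted p = 6.89e-06), and KEAP1, which degrades the protein, fell by 0.46 on the log2 scale. In the list of NRF2 targets, 6 of 21 tested members rose, 8 fell and 7 did not pass (5 falls without MAL3-101 B). The median was -0.06. Besides SLC7A11, MAFF rose by 2.63 (SE 0.15) and OSGIN1 by 1.04 (SE 0.10). HMOX1, heme oxygenase, was at 13.7 and 16.7 TPM with DMSO and 24.98 and 22.1 with MAL3-101, a change of 0.60 (SE 0.12, adjusted p = 0.0062) (adjusted p = 0.0621 without MAL3-101 A). PRDX1, an abundant peroxidase, was at 590.5 and 579.7 TPM with DMSO and 309 and 295 with MAL3-101 and fell by 0.95, and TXN, thioredoxin, fell by 0.50 on the log2 scale.

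Every member of the FOS and JUN family passed the test upward, with a median log2 fold change of 1.67 over 7 genes. FOS stood at 2.26 and 2.25 TPM with DMSO and 73.4 and 65.8 with MAL3-101, a change of 4.44 (SE 0.11, adjusted p = 1.25e-06), and FOSB at 1.4 and 1.05 TPM with DMSO and 12.9 and 11.2 with MAL3-101. JUN, which is expressed without drug as well, was at 139.7 and 166 TPM with DMSO and 391 and 382 with MAL3-101, and JUNB rose by 1.67 (SE 0.10). In all of these both drug libraries lay above both DMSO libraries. FOSL1 differed widely between its DMSO libraries, at 2.77 and 15.9 TPM with DMSO and 30.4 and 25.5 with MAL3-101, and its adjusted p was 0.167 without MAL3-101 A and 0.122 without MAL3-101 B, by limma.

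Of the other immediate-early factors, 15 of 19 tested members rose, 0 fell and 4 did not pass (2 falls without DMSO A). EGR1, whose promoter above holds a pair of CArG boxes, was at 8.06 and 11.2 TPM with DMSO and 478 and 456 with MAL3-101, a change of 5.47 (SE 0.13, adjusted p = 9.56e-07), and EGR2 at 0.53 and 0.29 TPM with DMSO and 9.29 and 8.84 with MAL3-101. KLF4 rose by 1.61 (SE 0.11) and NR4A1, an orphan nuclear receptor, by 1.60 (SE 0.09). CYR61, a secreted matrix protein also driven by the coactivator YAP, stood at 156 and 329 TPM with DMSO and 211 and 197 with MAL3-101, with DMSO libraries on both sides of the drug libraries. Its log2 fold change of -0.15 became -0.68 without DMSO A and 0.38 without DMSO B. Of the MAP kinase phosphatases, which switch off the kinases upstream of these factors, 7 of 11 tested members rose, 1 fell and 3 did not pass (4 rises without MAL3-101 A). DUSP16 was at 5.61 and 5.4 TPM with DMSO and 29.7 and 26.1 with MAL3-101, a change of 2.15 (SE 0.09, adjusted p = 1.27e-05), and DUSP1 rose by 1.53 (SE 0.14). In the sprouty, SPRED and PEA3 group, also read out by ERK, 4 of 10 tested members rose, 1 fell and 5 did not pass (1 rise without MAL3-101 A, 1 rise without MAL3-101 B). SPRY2 rose by 0.49 (SE 0.05), and ETV4 fell by 0.50 on the log2 scale.

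Growth factor receptors gave no common direction: 4 of 18 tested members rose, 3 fell and 11 did not pass (9 rises without DMSO A, 1 rise without MAL3-101 A, 1 rise without MAL3-101 B, 1 fall without MAL3-101 A, 1 fall without MAL3-101 B). FGFR4, a receptor typical of this tumour, stood at 573 and 647 TPM with DMSO and 395 and 406 with MAL3-101 and fell by 0.60 on the log2 scale, with no overlap, and IGF2R, which clears IGF2, rose by 0.55 (SE 0.05). In the list of inflammatory cytokines and NF-kB genes, 8 of 15 tested members rose, 1 fell and 6 did not pass (5 rises without MAL3-101 A, 5 rises without MAL3-101 B). IL8, a neutrophil attractant, was at 0.59 and 1.1 TPM with DMSO and 24.2 and 22.8 with MAL3-101. That difference is given without a test because IL8 passed the filter through the parental drug group alone. So did CXCL1, and the count of rises, which holds both genes, is partly set by the filter. CCL2, a monocyte attractant, was at 6.67 and 14.5 TPM with DMSO and 2.47 and 2.47 with MAL3-101 and fell. In the interferon group, 4 of 17 tested members rose, 4 fell and 9 did not pass (1 fall without MAL3-101 A, 1 fall without MAL3-101 B). IRF7 rose by 0.97 (SE 0.11) and B2M, the light chain of class I antigens, fell by 0.28.

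Cell death genes with BH3 domains rose in part: 3 of 8 tested members rose, 1 fell and 4 did not pass. BBC3 (PUMA) was at 2.42 and 1.7 TPM with DMSO and 9.24 and 10.4 with MAL3-101 and PMAIP1 (NOXA) at 10.6 and 9.64 TPM with DMSO and 31.7 and 31.3 with MAL3-101, changes of 1.83 (SE 0.16) and 1.55 (SE 0.09, adjusted p = 6.25e-05). BCL2L11 (BIM) rose by 0.63 (SE 0.14, adjusted p = 0.00974) (adjusted p = 0.0796 without MAL3-101 A), and BID fell by 0.70 on the log2 scale. MCL1, which PMAIP1 protein neutralises, stood at 121 and 123 TPM with DMSO and 197 and 191 with MAL3-101 and rose by 0.66 (SE 0.04). Of death receptors and caspase inhibitors, 5 of 14 tested members rose, 3 fell and 6 did not pass (0 falls without MAL3-101 A, 1 fall without MAL3-101 B), and TNFRSF10B, the receptor DR5, was at 37.9 and 42.4 TPM with DMSO and 84.1 and 83.2 with MAL3-101, a change of 1.04 (SE 0.07, adjusted p = 9.87e-05). Of the p53 response genes, 13 of 21 tested members rose, 0 fell and 8 did not pass (5 rises without MAL3-101 A, 6 rises without MAL3-101 B, 2 falls without DMSO A, 3 falls without DMSO B). GADD45A led with a rise of 1.61 (SE 0.05), followed by SERTAD1 at 1.46 (SE 0.11) and CDKN1A at 1.34 (SE 0.09). ZMAT3 did not pass at 7.46 and 7.17 TPM with DMSO and 7.12 and 7.05 with MAL3-101.

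Among cell cycle genes, falls outnumbered rises in the G1, DNA replication and mitotic groups. CDKN1A (p21), the inhibitor of cyclin-dependent kinases, was at 68.2 and 83.1 TPM with DMSO and 196 and 187 with MAL3-101. CCND1, cyclin D1, was at 76.3 and 126 TPM with DMSO and 37.3 and 36.8 with MAL3-101, a change of -1.38 (SE 0.21, adjusted p = 0.00243), and CCND3 was at 207 and 201 TPM with DMSO and 109 and 109 with MAL3-101, a change of -0.90 (SE 0.04, adjusted p = 2.66e-05). In the group of G1 genes, 3 of 23 tested members rose, 9 fell and 11 did not pass (5 rises without DMSO A). CDK4 was very abundant, at 12236 and 12954 TPM with DMSO and 9328 and 9219 with MAL3-101, and fell by 0.44 on the log2 scale. In the DNA replication group, 2 of 36 tested members rose, 24 fell and 10 did not pass (5 rises without DMSO A, 0 rises without MAL3-101 A, 0 rises without MAL3-101 B, 14 falls without MAL3-101 A, 13 falls without MAL3-101 B). The median was -0.30. UHRF1, which copies DNA methylation at the fork, stood at 243 and 239.7 TPM with DMSO and 121 and 119 with MAL3-101, a change of -1.0 (SE 0.05, adjusted p = 1.81e-05). PCNA, the sliding clamp, fell by 0.82, RRM2, which makes deoxynucleotides, by 0.72 and MCM4, a helicase subunit, by 0.63 on the log2 scale. Mitotic genes moved less: 2 of 32 tested members rose, 11 fell and 19 did not pass (9 rises without DMSO A, 0 rises without MAL3-101 B, 6 falls without MAL3-101 A, 6 falls without MAL3-101 B). The median was -0.10. KIF20A, a spindle motor, fell by 0.49 on the log2 scale, and the proliferation marker MKI67 stood at 68.4 and 63.6 TPM with DMSO and 62.6 and 64.5 with MAL3-101 and did not pass.

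Genes whose names start with TUBA, TUBB or TUBG, counted after the values were seen, were mostly lower. Of 19 tested, 11 fell and 4 rose, with a median log2 fold change of -0.35 (the same counts under both rescalings). The name rule can also take in genes that do not encode a tubulin, such as those of gamma-tubulin complex proteins. TUBB stood at 2103 and 2135 TPM with DMSO and 1144 and 1124 with MAL3-101 and TUBA1B at 4556 and 4889.7 TPM with DMSO and 2839 and 2817 with MAL3-101, changes of -0.90 (SE 0.04, adjusted p = 2.1e-05) and -0.74 (SE 0.05, adjusted p = 0.000116). Of 49 replication-dependent histone genes 19 were tested, all at low levels, and of these 6 rose, 0 fell and 13 did not pass (3 rises without MAL3-101 A). HIST1H2AC, an H2A gene, was the largest, at 2.85 and 4.42 TPM with DMSO and 13.9 and 14.7 with MAL3-101. As members with low levels enter only through the group where they are higher, their direction is partly set by the filter.

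Nucleolar genes that make ribosomes tended downward: 4 of 31 tested members rose, 11 fell and 16 did not pass (2 rises with median-ratio scaling, 2 rises with upper-quartile scaling, 2 rises without MAL3-101 A, 2 rises without MAL3-101 B, 17 falls with upper-quartile scaling, 18 falls without DMSO A). UBTF, the factor that opens ribosomal DNA to RNA polymerase I, stood at 125 and 124 TPM with DMSO and 67.3 and 67.3 with MAL3-101, a change of -0.87 (SE 0.05, adjusted p = 4.01e-05), and NOP56, a core protein of box C/D snoRNPs, at 476 and 552 TPM with DMSO and 265 and 286 with MAL3-101, a change of -0.89 (SE 0.07, adjusted p = 0.00024). Its partner NOP58 went the other way, at 137 and 149 TPM with DMSO and 209 and 211 with MAL3-101. NOP58 rose by 0.56 (SE 0.05).

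Host genes of small nucleolar RNAs, most of which are spliced RNAs without a long reading frame, mostly rose: 12 of 16 tested members rose, 3 fell and 1 did not pass. The median was 1.02. SNHG17 stood at 65.1 and 77.7 TPM with DMSO and 227 and 224 with MAL3-101, a change of 1.65 (SE 0.08, adjusted p = 2.51e-05). ZFAS1 was at 212 and 229.9 TPM with DMSO and 640.1 and 669 with MAL3-101, GAS5 at 337 and 377 TPM with DMSO and 724 and 765 with MAL3-101 and SNHG8 at 96.05 and 108 TPM with DMSO and 315 and 301 with MAL3-101. These RNAs are known substrates of nonsense-mediated decay, a translation-coupled process. SNHG3 went down instead, from 89.2 and 122 TPM to 52.5 and 51.9 TPM, a change of -0.98 (SE 0.13, adjusted p = 0.00124). The signal recognition particle RNAs RN7SL1 and RN7SL2, structured RNAs that such libraries capture unevenly, were among the largest falls. RN7SL1 was at 35.2 and 68.4 TPM with DMSO and 17.04 and 15.7 with MAL3-101, and RN7SL2 had an adjusted p = 0.111 by limma without MAL3-101 A.

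Cytosolic ribosomal protein genes scarcely moved: 8 of 50 tested members rose, 6 fell and 36 did not pass (28 rises without DMSO A, 1 rise without MAL3-101 A, 1 rise without MAL3-101 B, 11 falls with upper-quartile scaling, 12 falls without DMSO A, 14 falls without DMSO B, 0 falls without MAL3-101 A, 1 fall without MAL3-101 B). The largest changes were 0.34 for RPL10A and -0.29 for RPL27 (adjusted p = 0.0512 without MAL3-101 A). Among translation initiation factors, 10 of 38 tested members rose, 14 fell and 14 did not pass (6 rises without MAL3-101 A, 5 rises without MAL3-101 B, 9 falls without MAL3-101 A, 8 falls without MAL3-101 B). EIF1, which guards start codon choice, stood at 618 and 703 TPM with DMSO and 1363 and 1328 with MAL3-101 and rose by 1.03 (SE 0.07), and EIF2S2, the beta subunit of eIF2, rose by 0.85 (SE 0.05), while its gamma subunit EIF2S3 fell by 0.36 on the log2 scale. EIF4A1, a helicase of the cap-binding complex, fell by 0.58 and the scaffold EIF4G1 of that complex by 0.46, and EIF5A by 0.61. The related helicase EIF4A2, in the same list, rose by 0.43 (SE 0.09).

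Splicing regulators showed rises and falls of single members: 12 of 29 tested members rose, 9 fell and 8 did not pass (5 falls without MAL3-101 A). CLK1, a kinase of SR proteins whose own intron retention responds to stress, stood at 52.05 and 46.9 TPM with DMSO and 131 and 132 with MAL3-101, a change of 1.40 (SE 0.06, adjusted p = 2.01e-05). Its relatives CLK4 and CLK3 rose by 0.81 (SE 0.09) and 0.34 (SE 0.05), and CLK2 fell by 0.71 on the log2 scale. The cold-inducible RNA-binding proteins RBM3 and CIRBP, usually lowered by heat, rose by 0.92 (SE 0.06) and 0.64 (SE 0.07). Of pause and elongation factors, 8 of 20 tested members rose, 1 fell and 11 did not pass (5 rises with upper-quartile scaling, 5 rises without MAL3-101 A, 4 rises without MAL3-101 B, 3 falls with upper-quartile scaling). AFF4, a scaffold of the super elongation complex, rose by 0.63 (SE 0.09).

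The circadian clock genes rose nearly throughout: 15 of 17 tested members rose, 0 fell and 2 did not pass. The median was 0.89. NR1D1, the repressor REV-ERB alpha, stood at 3.24 and 2.67 TPM with DMSO and 27.1 and 28.4 with MAL3-101, a change of 2.87 (SE 0.12, adjusted p = 1.01e-05). PER2, of the negative limb, was at 4.65 and 4.69 TPM with DMSO and 24.8 and 25.6 with MAL3-101, and ARNTL (BMAL1), of the positive limb, at 7.09 and 5 TPM with DMSO and 17.6 and 18.1 with MAL3-101. All 3 genes passed the test upward (the last 2 by 2.21 (SE 0.09) and 1.44 (SE 0.15)). TEF, an output factor, rose by 2.06 (SE 0.17), PER1 by 1.18 (SE 0.09) and NR1D2, the relative of NR1D1, by 1.02 (SE 0.06). NR1D1 overlaps the gene THRA on the opposite strand, and as the use of strand in counting is not given in the sources used here, reads of the pair cannot be told apart. THRA stood at 15.1 and 13.6 TPM with DMSO and 11.9 and 11.5 with MAL3-101, and its log2 fold change of -0.27 lost its call without DMSO A (adjusted p = 0.0617), MAL3-101 A (0.123) or MAL3-101 B (0.173). Of 17 clock genes with a promoter window, 5 (29.4%) held an E-box (CACGTG), BHLHE40, BHLHE41, NR1D2, PER1 and TEF, against 12.6% of all tested genes with a window, 10.7% of the 2-fold rises, 26.5% of the amino acid genes and 4 of 20 immediate-early genes.

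**Figure D3:**
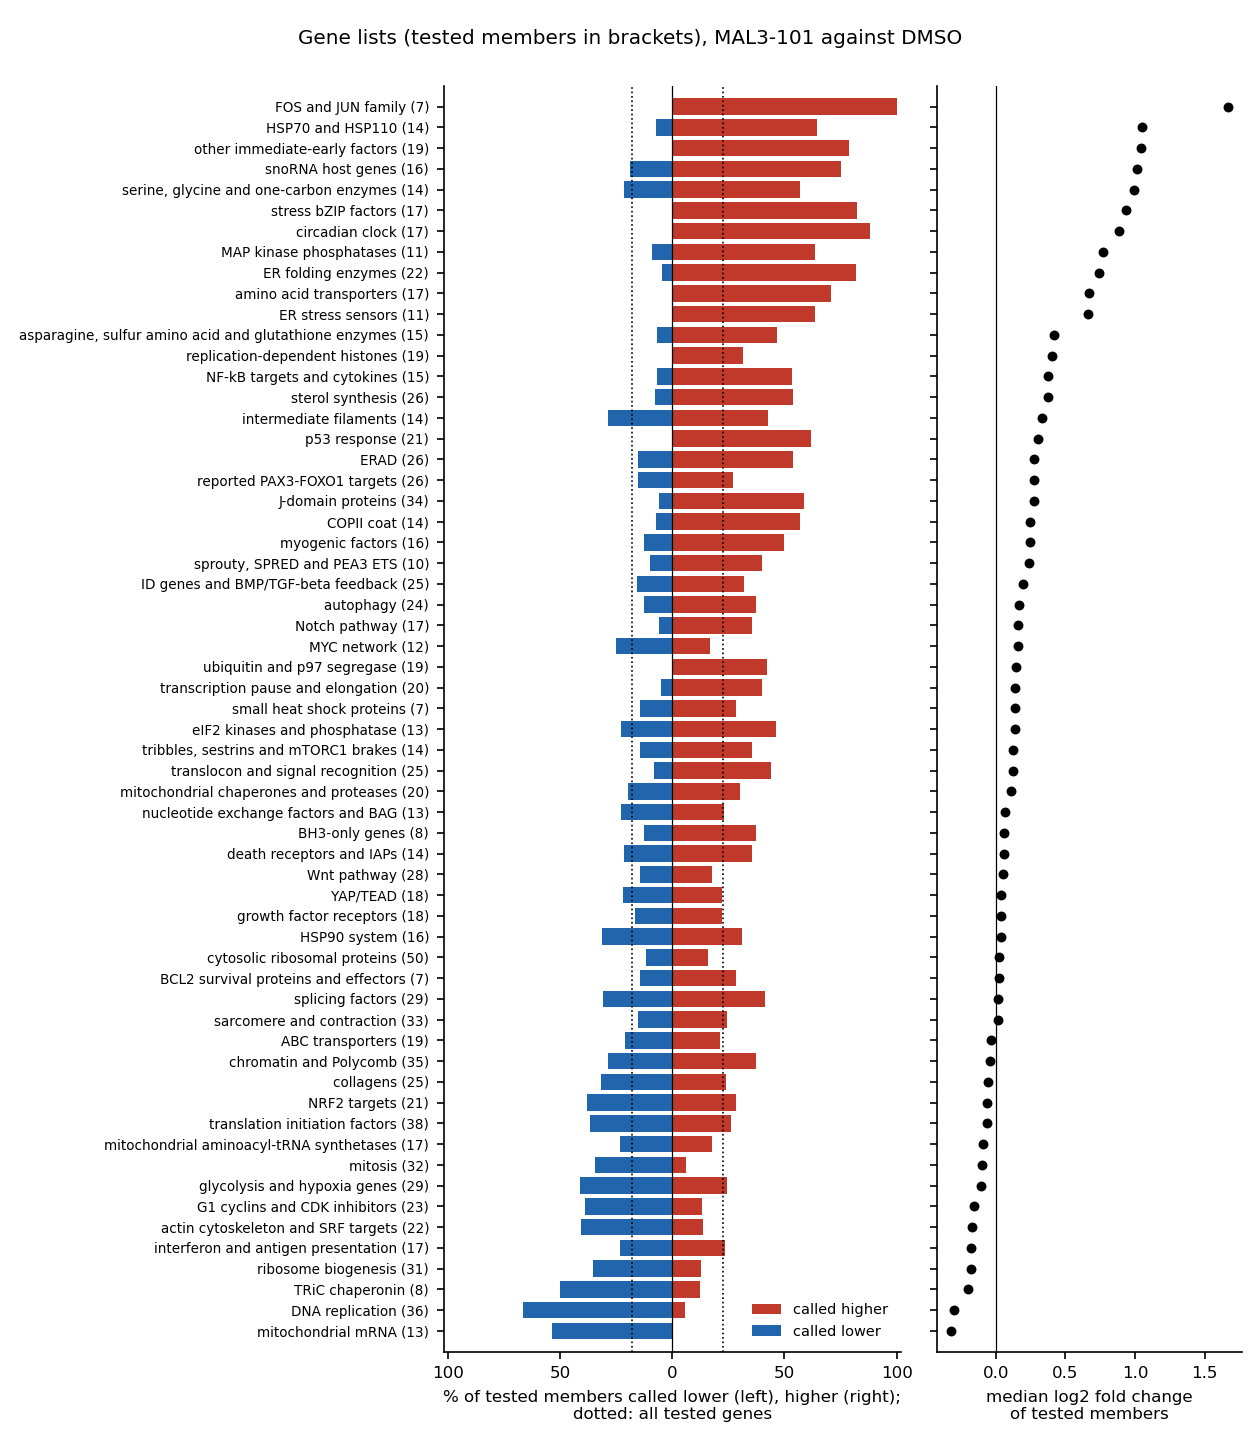
Share of tested members called higher (red, right) and lower (blue, left) in each list with 7 or more tested members, with tested members in brackets and the shares over all tested genes dotted (22.6% and 18.2%), and the lists' median log2 fold change. The FOS and JUN family stands at the top with 1.67, and DNA replication and mitochondrial mRNA stand at the bottom.

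Chromatin regulators changed member by member: 13 of 35 tested members rose, 10 fell and 12 did not pass (6 falls without MAL3-101 A). KDM6B, a demethylase of lysine 27 on histone H3, stood at 11.4 and 14.7 TPM with DMSO and 35.03 and 34.9 with MAL3-101, a change of 1.36 (SE 0.11, adjusted p = 0.000223). Within the CBX proteins, readers of Polycomb complexes, CBX2, at 98.1 and 80.9 TPM with DMSO and 47.1 and 47.8 with MAL3-101, and CBX6, at 27.8 and 33.8 TPM with DMSO and 16.3 and 16.6 with MAL3-101, fell. Their log2 fold changes were -0.90 (SE 0.09) and -0.86 (SE 0.10). In neither did the groups overlap. In the MYC network, MYC stood at 31.3 and 40 TPM with DMSO and 62.6 and 62.8 with MAL3-101 and rose by 0.81 (SE 0.11), MYCN, an oncogene typical of this tumour, stood at 87.96 and 83.8 TPM with DMSO and 53.2 and 54.1 with MAL3-101 and fell by 0.67 on the log2 scale, and MXD1, a MYC antagonist, was at 4.37 and 4.28 TPM with DMSO and 19.1 and 19.3 with MAL3-101, a change of 1.92 (SE 0.10, adjusted p = 3.3e-05).

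Muscle genes moved in both directions. For sarcomere and contraction genes the shares of rises and falls lay near those of all tested genes (22.6% and 18.2%). Of myogenic factors, 8 of 16 tested members rose, 2 fell and 6 did not pass: MEF2A, a partner of MYOD1, stood at 23.7 and 21.6 TPM with DMSO and 47.5 and 46.98 with MAL3-101, a change of 1.03 (SE 0.07, adjusted p = 7.93e-05), and MEF2D rose by 0.64 (SE 0.07). MYOD1 fell by 0.18 on the log2 scale (adjusted p = 0.0119 by limma, 0.0939 without MAL3-101 A and 0.0796 without MAL3-101 B). MYOG did not pass, with a log2 fold change of 0.20 that became 0.56 without DMSO A and -0.15 without DMSO B. PAX3, read in part from the fusion, stood at 37.05 and 35.8 TPM with DMSO and 51.4 and 47.4 with MAL3-101 and rose by 0.43 (SE 0.06), and FOXO1, its fusion partner, at 28.6 and 22.5 TPM with DMSO and 26.9 and 24.9 with MAL3-101 with overlapping groups. Its log2 fold change of 0.03 became -0.01 and -0.03 under median-ratio and upper-quartile scaling, -0.14 without DMSO B and -0.03 without MAL3-101 A. Of sarcomere and contraction genes, 8 of 33 tested members rose, 5 fell and 20 did not pass (14 rises without DMSO A, 5 rises without MAL3-101 B, 9 falls without DMSO A, 8 falls without DMSO B). NEB, the giant filament ruler nebulin, rose by 1.42 (SE 0.14), and ACTC1, cardiac actin, abundant here at 1655 and 2554 TPM with DMSO and 1126 and 1086 with MAL3-101, fell by 0.89. Of reported targets of PAX3-FOXO1, 7 of 26 tested members rose, 4 fell and 15 did not pass (17 rises without DMSO A, 1 rise without MAL3-101 A, 1 rise without MAL3-101 B, 7 falls with upper-quartile scaling, 9 falls without DMSO B), a share of rises near the background.

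The actin genes fell: ACTB stood at 2201 and 2738 TPM with DMSO and 1507 and 1482 with MAL3-101 and ACTG1 at 2545 and 3294 TPM with DMSO and 1960.2 and 1876 with MAL3-101, changes of -0.72 (SE 0.09, adjusted p = 0.00128) and -0.59 (SE 0.11, adjusted p = 0.00506). Of cytoskeletal targets of serum response factor, 3 of 22 tested members rose, 9 fell and 10 did not pass (6 rises without DMSO B). FHL2, which binds SRF, rose by 1.33 (SE 0.06). In the YAP/TEAD group, 4 of 18 tested members rose, 4 fell and 10 did not pass (10 rises without DMSO B, 2 rises without MAL3-101 A, 2 rises without MAL3-101 B, 7 falls without DMSO A, 2 falls without MAL3-101 A, 1 fall without MAL3-101 B). ANKRD1 was at 9.64 and 19.3 TPM with DMSO and 76.96 and 70.05 with MAL3-101 and rose by 2.34 (SE 0.26). FSTL1, a secreted glycoprotein, stood at 326 and 474 TPM with DMSO and 179 and 177 with MAL3-101 and fell by 1.14 on the log2 scale. Of intermediate filaments, NES, nestin, was at 631 and 652 TPM with DMSO and 351 and 349 with MAL3-101 and fell by 0.87, and KRT17 rose by 0.81 (SE 0.04). Of the collagens, 6 of 25 tested members rose, 8 fell and 11 did not pass (1 rise without MAL3-101 A, 1 rise without MAL3-101 B, 4 falls without MAL3-101 A, 4 falls without MAL3-101 B). COL3A1 fell by 0.91, and COL1A1 rose by 0.83 (SE 0.17) (adjusted p = 0.0622 without MAL3-101 B).

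Developmental pathways changed in single members. In the Wnt pathway neither rises nor falls were more frequent than over all tested genes (22.6% and 18.2%). Of the Notch pathway, 6 of 17 tested members rose, 1 fell and 10 did not pass (10 rises without DMSO A, 2 rises without MAL3-101 A, 2 rises without MAL3-101 B). LFNG, which adds sugars to Notch receptors, was at 37.3 and 31.01 TPM with DMSO and 17.3 and 18.3 with MAL3-101 and fell by 0.90. Of the Wnt pathway, 5 of 28 tested members rose, 4 fell and 19 did not pass (9 rises without DMSO A, 3 rises without MAL3-101 A, 3 rises without MAL3-101 B, 8 falls without DMSO B). WNT4, a ligand, was at 2.15 and 0.92 TPM with DMSO and 8.47 and 8.22 with MAL3-101, a change of 1.93 (SE 0.25, adjusted p = 0.00121), and the receptors FZD1 and FZD2 fell by 0.56 and 0.54. In the BMP and TGF-beta group, 8 of 25 tested members rose, 4 fell and 13 did not pass (4 rises without MAL3-101 A, 5 rises without MAL3-101 B, 2 falls without MAL3-101 A, 2 falls without MAL3-101 B). ID1, an inhibitor of myogenic factors, was at 144 and 211 TPM with DMSO and 97.9 and 103 with MAL3-101 and fell by 0.79 (adjusted p = 0.0524 without MAL3-101 A), the ligand BMP4 fell by 0.65, and the inhibitor SMAD7 rose by 0.95 (SE 0.10).

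Several glycolytic enzymes fell. In the list of glycolysis and hypoxia genes, 7 of 29 tested members rose, 12 fell and 10 did not pass (4 rises without MAL3-101 A, 3 rises without MAL3-101 B, 7 falls without MAL3-101 B). PGAM1 stood at 457 and 436 TPM with DMSO and 262 and 263 with MAL3-101, a change of -0.76 (SE 0.04, adjusted p = 4.87e-05), GPI fell by 0.68, ENO1 by 0.72 and LDHA by 0.58 on the log2 scale. VEGFA and the lactate carrier SLC16A3 were its largest rises, at 2.23 and 1.61. In the sterol list, 14 of 26 tested members rose, 2 fell and 10 did not pass (0 falls without DMSO B, 0 falls without MAL3-101 A, 0 falls without MAL3-101 B). STARD4, a cholesterol carrier, rose by 1.27 (SE 0.06) and HSD17B7 by 1.22 (SE 0.08). SLC30A1, which exports zinc, was at 12.2 and 11.5 TPM with DMSO and 44.5 and 45.6 with MAL3-101, a change of 1.84 (SE 0.07, adjusted p = 9.36e-06), with MT1X, a zinc-binding metallothionein, up by 0.40 (SE 0.07).

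Transcripts of the mitochondrial genome split by type. The ribosomal RNAs MT-RNR1 and MT-RNR2 stood at 1199 and 1126 TPM with DMSO and 4699 and 5026 with MAL3-101, and at 4133 and 4527 TPM with DMSO and 14468 and 14677 with MAL3-101, changes of 2.06 (SE 0.06, adjusted p = 1.83e-06) and 1.75 (SE 0.06, adjusted p = 5.04e-06). Of 13 messenger RNAs from the same genome, 0 of 13 tested members rose, 7 fell and 6 did not pass (12 falls without DMSO A, 3 falls without MAL3-101 A), with MT-CO3 at -0.51. Of nuclear genes for mitochondrial chaperones and proteases, 6 of 20 tested members rose, 4 fell and 10 did not pass (10 rises without DMSO A, 1 fall without MAL3-101 A, 2 falls without MAL3-101 B). LONP1, a matrix protease, was at 67.9 and 79.98 TPM with DMSO and 122 and 129.7 with MAL3-101 and rose by 0.76 (SE 0.08), HSPD1, the chaperonin HSP60, by 0.36 (SE 0.05), and PHB, prohibitin, fell by 0.53 on the log2 scale.

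The genes that fell furthest were few and of modest level. IGFBP7, a secreted binding protein, was at 10.1 and 21.2 TPM with DMSO and 3.51 and 3.2 with MAL3-101, the cancer-testis antigens CTAG2 and MAGEC2 at 10.1 and 14.8 TPM with DMSO and 2.69 and 3.21 with MAL3-101, and at 4.26 and 9.11 TPM with DMSO and 1.06 and 1.28 with MAL3-101, respectively. Their log2 fold changes were -1.85 (SE 0.29), -1.75 (SE 0.19) and -1.75 (SE 0.29), and in each the DMSO libraries differed widely from each other. FHOD1, an actin-nucleating formin, fell more evenly, at 55.7 and 67.2 TPM with DMSO and 23.1 and 22.4 with MAL3-101. DHRS2, a reductase, and SH3BGR, chosen after their values were seen, rose from 1.44 and 2.29 TPM to 22.5 and 24.5 TPM and from 11.3 and 12.2 TPM to 95.8 and 103 TPM. MIR17HG, the host of the miR-17 to miR-92a cluster, fell from 16.9 and 16.5 TPM to 4.92 and 7.75 TPM, and TREX1, a DNA exonuclease, from 14.7 and 14.7 TPM to 5.26 and 5.32 TPM.

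Calls also varied with level and with gene span. Of 1371 genes with a mean of 100 to 1000 TPM over the 4 parental libraries, 274 rose and 582 fell, while of 4072 genes at 5 to 20 TPM 1091 rose and 542 fell. Span, the distance from the first to the last base of the gene in GENCODE 29, was matched by name for 12685 of the tested genes (83.74%). In the shortest of 6 equal classes, 0.06 to 7.47 kb, 349 of 2115 genes rose and 522 fell, and in the longest, 114.09 to 2473.54 kb, 673 of 2115 rose and 209 fell. The median log2 fold change went from -0.07 to 0.15. Among genes of 5 to 100 TPM alone, the shortest class had 209 rises and 289 falls of 1043 and the longest 565 and 151 of 1569. The order of these end classes was the same after both rescalings.

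**Figure D4:**
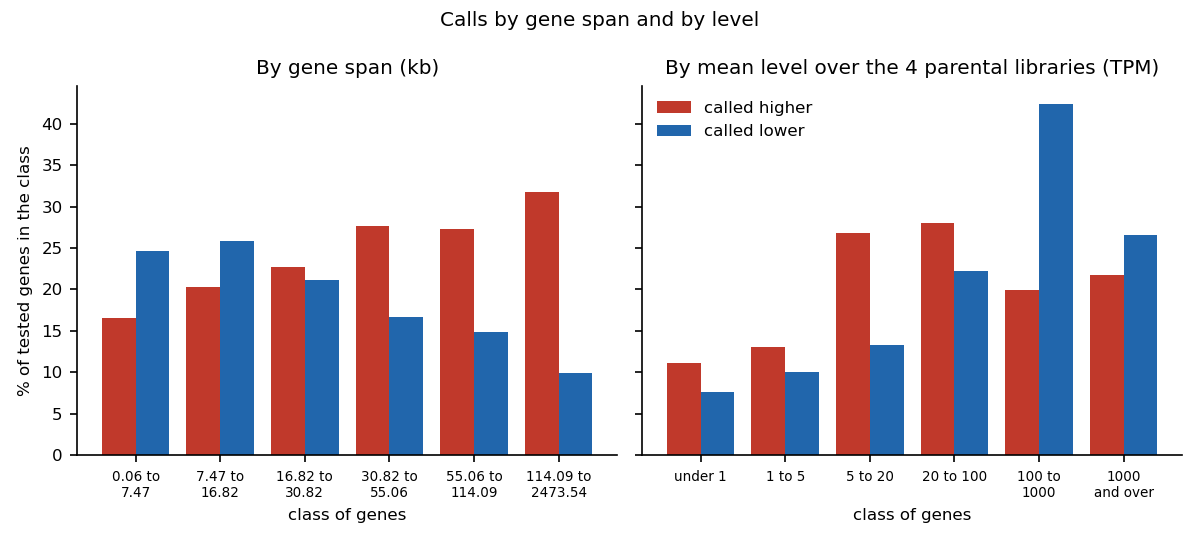
Percent of tested genes called higher (red) and lower (blue) with MAL3-101, by classes of gene span (left) and of mean TPM over the 4 parental libraries (right). Rises grow from 16.5% in the shortest to 31.8% in the longest span class, and falls are most frequent (42.5%) at 100 to 1000 TPM.

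Some large changes lay next to each other on a chromosome. In RefSeq's gene order, DDIT3 (CHOP, at 132 and 128 TPM with DMSO and 2260.1 and 2313 with MAL3-101) and INHBE lie in a stretch of 8 tested genes from INHBC to DCTN2, chosen after the values were seen. In it 7 rose, 4 of them by 2-fold or more, and INHBC, at 0.65 and 1.26 TPM with DMSO and 1.24 and 0.97 with MAL3-101, did not pass. DCTN2 rose least (0.19 (SE 0.05)) and lost its call with upper-quartile scaling (adjusted p = 0.0601) and without MAL3-101 A (0.129) or B (0.116). ARHGAP9, a gene mostly known from blood cells, was at 8.6 and 6.55 TPM with DMSO and 72.6 and 74.7 with MAL3-101, a change of 3.13 (SE 0.12, adjusted p = 9.36e-06). It overlaps MARS, the methionyl-tRNA synthetase gene, which was at 892 and 938 TPM with DMSO and 1912 and 1956 with MAL3-101, and with the use of strand in counting not given their reads cannot be told apart. A second stretch, also chosen after the values were seen, runs from CBFB to FHOD1 and holds HSF4. Its end genes both fell. Of its 14 tested genes 11 fell, 5 of them by 2-fold or more, and 3 did not pass. As the ends were set with the values known, these counts are partly fixed by that choice. FBXL8, EXOC3L1 and ELMO3 were at 9.85 and 9.66, 4.87 and 5.25 and 5.02 and 7.46 TPM with DMSO and 3.4 and 3.7, 1.42 and 1.69 and 1.59 and 2.16 TPM with MAL3-101. CBFB, a partner of RUNX factors, fell from 172 and 167 TPM to 92.2 and 94.7 TPM.

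**Figure D5:**
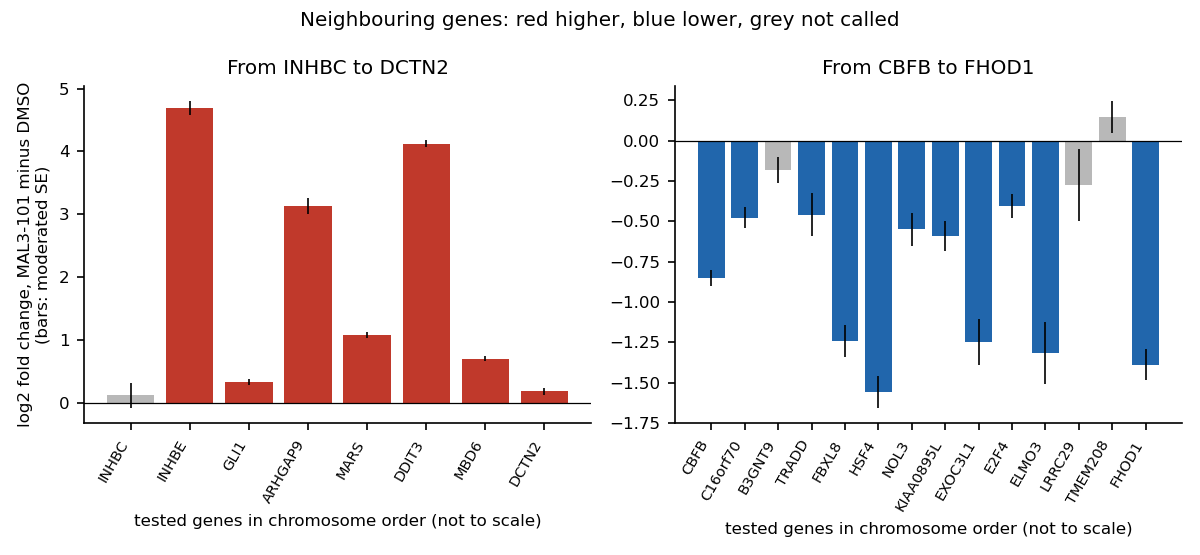
Log2 fold change with moderated SE of tested genes in chromosome order, for the stretches from INHBC to DCTN2 (left) and from CBFB to FHOD1 (right); red rose, blue fell, grey did not pass. All but INHBC rose on the left, with INHBE and DDIT3 above 4, and 11 of 14 genes fell on the right. Both stretches were chosen after the values were seen.

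In the resistant line with the same drug, dose and time, levels differed from those of parental cells with drug in both directions or not detectably, depending on the gene. Without a resistant DMSO group the line and its response cannot be told apart, and the comparison shares the parental drug libraries by which most of these genes were picked. HSPA6 was at 10.4 and 9.23 TPM there, a difference from parental MAL3-101 of -4.72 (SE 0.17, adjusted p = 2.85e-06) by limma. DDIT3 was at 370.2 and 401 TPM, a difference of -2.57 (SE 0.05, adjusted p = 6.65e-07), which lies above its parental DMSO level of 132 and 128 TPM. EGR1 was at 3.69 and 3.9 TPM, below its parental DMSO level, with a difference of -6.61 (SE 0.13, adjusted p = 6.65e-07). HSPA8 did not differ detectably, at 1340.1 and 1279 TPM, with a difference of 0.10 (SE 0.09, adjusted p = 0.368). NR1D1, at 3.37 and 3.23 TPM, and SNHG17, at 80.5 and 82.7 TPM, lay near their parental DMSO levels. VEGFA stood at 73.3 and 73.2 TPM, a difference from parental MAL3-101 of 0.17 (SE 0.07, adjusted p = 0.0586), and MYCN, at 81.3 and 81.8 TPM, was near the parental DMSO level and differed from parental MAL3-101 by 0.59 (SE 0.05, adjusted p = 8.98e-05).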

How the data were processed

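RNA of RMS13 cells was sequenced as paired-end TruSeq libraries, per the labels. The authors deposited TPM per gene; RSEM, DESeq and hg19 are named in the submitters' processing notes without roles. For none of them is a version given in the sources used here, nor is a depth or a strand setting. From the deposited TPM, log2(TPM + 1) was computed, which understates the change of low genes, and limma 3.58.1 estimated 3 group means from the 6 libraries together, allowing the variance to depend on level. P-values were adjusted by Benjamini and Hochberg's method over the 15148 genes that averaged 1 TPM or more in any group. The fit has 3 residual and 4.17 prior degrees of freedom, and the median SE of a log2 fold change was 0.105. Sequences, gene order and promoters came from RefSeq tables (GRCh38.p14), spans from GENCODE 29 matched by name, with tests and motif searches run in R 4.3.3 and Python 3.11.15.

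The libraries compared and the gene lists were chosen with earlier results of these data known, so no list has a p-value. Genes named were the called genes that rose most (15) and fell most (15) among those with 5 TPM or more in a parental group and no overlap, up to 4 called members per list and direction with the largest change, and a fixed set of chaperone, stress, muscle and tumour genes. Some members of these sets are not reported here. These were chosen after their values were seen: MIR17HG, TREX1, SH3BGR, DHRS2, ARHGAP9, MARS, TUBB, TUBA1B, THRA, CBFB, FBXL8, EXOC3L1, ELMO3, GOT1, MTHFD1L, CALR, CANX, CRELD2, ERO1LB, PDIA6, HSPH1, HYOU1, DNAJA1, HSP90AB1, CREB5, ATF5, JDP2, JUN, GCLC, MANF, UBB, NR4A1, CYR61, ZMAT3, CDK4, MKI67, GAS5, EIF2S3, EIF4G1, CLK3, CIRBP, PER1, NR1D2, LDHA, HSPD1, IGF2, INHBC and DCTN2.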

Additional observations from a re-analysis of the deposited data

How the results depend on the processing

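With 2 libraries a group and no read depth, the number of called genes depended on single libraries and on the size of change asked for. Leaving out 1 library at a time gave 3169 to 7683 called genes, 1801 to 4512 higher and 1368 to 3458 lower, with 404 to 541 at 2-fold or more higher and 98 to 175 at 2-fold or more lower. Tested against a fold of 1.5, 346 genes passed, 299 higher and 47 lower, 265 of them at 2-fold or more higher and 30 lower. With 2 libraries a group, failing that test does not show that a change is small. The counts at 2-fold depended on the pseudocount by construction: 661 higher and 260 lower with 0.1, and 201 and 15 with 5. The stricter filter of 5 TPM, which tests fewer genes, left 59 at 2-fold or more lower. Without a filter 4778 genes passed, with only the 4 parental libraries 4792, without the trend 5562 and without mitochondrial genes 6247; the cause was not tested where no reason is given.

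Libraries with the same letter showed no shared deviation (the correlation of A minus B between DMSO and MAL3-101 was 0.03 across genes). That does not tell whether they were grown or prepared together. A fit with the replicate letter as a block called 5942 genes, 3299 higher and 2643 lower, with 426 and 104 at 2-fold or more. Of 433 named genes the block ended the call of 13, leaving out MAL3-101 A that of 115 and leaving out MAL3-101 B that of 106. Among named genes, log2 fold changes took both signs only where the main test was not passed. With 1 library left out they ranged from -0.14 to 0.19 for FOXO1, -0.15 to 0.56 for MYOG, -0.68 to 0.38 for CYR61, -0.12 to 0.032 for HSP90AB1, -0.034 to 0.22 for SQSTM1 and -0.11 to 0.35 for INHBC. FOXO1 also stood at -0.0054 with median-ratio and -0.028 with upper-quartile scaling.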

Other observations

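Some gene families outside the lists were counted after the values were seen, with no test against the other genes (of all tested genes 22.6% rose and 18.2% fell). Of 471 tested genes whose names start with ZNF, zinc finger proteins, many of them repressors of transcription, 134 rose and 35 fell (127 and 43 with median-ratio scaling, 117 and 52 with upper-quartile scaling), with a median log2 fold change of 0.13. Of 42 USP genes, which encode deubiquitinating enzymes, 17 rose and 2 fell (13 and 4 with median-ratio scaling, 12 and 4 with upper-quartile scaling). IGF2, a growth factor of this tumour type and 1 of its most abundant messages, stood at 2525 and 2776 TPM with DMSO and 1859.7 and 1864 with MAL3-101, and it changed by -0.51 (SE 0.06, adjusted p = 0.000754) by limma.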
